A study of Mus musculus with 30 samples.

Results

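The genes described here are 9 early-response genes of the mouse, *Egr1*, *Egr2*, *Nr4a1*, *Ier2*, *Ier3*, *Ier5*, *Srf*, *Trib1* and *Csrnp1*, out of 56941 genes counted. They were chosen by name, with earlier results of these data known. Of the 9 genes, 8 had enough reads to be tested at both treatment times, and *Srf* did not. Their mRNA was measured in mHypoA-2/12 cells, an immortalized line from the adult mouse hypothalamus, by QuantSeq 3′ mRNA-Seq, which reads the 3′ end of polyadenylated transcripts. The cells received vehicle (DMSO) or cannabidiol (CBD) at 0.325, 0.75, 1.5 or 3 µM for 6 h or 24 h. Each of these 10 groups had 3 libraries, A1 to A3 being vehicle and A4 to A15 CBD at 6 h, and A28 to A30 being vehicle and A16 to A27 CBD at 24 h. All groups shared the serum-containing culture before treatment and the detachment with trypsin before the cells were frozen. The paper describes the medium of the treatment, for CBD and vehicle, as DMEM with GlutaMAX and lists no serum for it. The labels do not say which libraries came from separate cultures, so p-values measure the spread between these libraries, which may be technical.

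Early-response genes are switched on within minutes by growth factors, calcium entry or stress, without a need for new protein. Serum response factor, the product of *Srf*, binds a DNA element called the CArG box together with ternary complex factors that MAP kinases phosphorylate, and phosphorylated CREB acts on many of the same promoters. The first proteins made, among them the EGR zinc-finger factors and the nuclear receptor NR4A1, then act on further genes, and in neurons such genes serve as markers of recent activity.

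The libraries held between 1839621 and 4420675 reads on genes, and levels are given in CPM, reads of a gene scaled to a common library total, normalized over all 30 libraries. Library A3, a vehicle library of the 6-h treatment, stood apart. It held 3574833 reads on genes, against 1839621 in A1 and 1919498 in A2, and 17.9% of its uniquely mapped reads lay outside genes, against 21.4% in A1 and 20.8% in A2. That share was low among the vehicle libraries only, as A13, a CBD library of 6 h, had 17.7%. In 7 of the 8 tested genes, all but *Ier3*, A3 had the highest level of the 15 libraries of 6 h, while it was the highest library in 14.3% of all 12012 genes tested. The calls that use vehicle at 6 h are therefore also given without A3, a step added after its values were seen. Of 10 neuronal markers, 8 averaged at least 1 CPM, among them *Tubb3*, *Nefm* and *Map2*. *Snap25* had 4 reads in all 30 libraries together, 1 of 6 hypothalamic peptide genes (*Gnrh1*) averaged at least 1 CPM, and the 7 mesenchymal markers summed to between 8323 and 10804 CPM, so the labelled cell type was seen in part of its markers only. The summed neuronal markers lay between 187 and 228 CPM in vehicle and between 161 and 217 CPM under CBD at 6 h. These sums overlapped between the groups.

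At 6 h most of the early-response genes tested were lower under CBD. Over the 4 doses together, *Nr4a1*, *Egr1*, *Trib1*, *Ier3* and *Ier5* fell at an FDR below 0.1 (edgeR quasi-likelihood test, Benjamini-Hochberg adjustment), which is 5 of 8 genes, against 0.508% of all genes called lower and 0.749% called in either direction. The largest of these 5 changes was that of *Nr4a1*, which was 2.21-fold lower, and the others were between 1.42-fold and 1.57-fold lower. *Egr2*, *Ier2* and *Csrnp1* did not pass. The paper lists the 5 called genes among those altered by CBD at 6 h in these same libraries. Its lists came from DESeq2 tests of each single dose, not of the 4 doses together. At single doses, from 0.325 to 3 µM, edgeR called 0 of the 8 genes here and DESeq2 2, 1, 2 and 2. The shares over all genes at these doses are given below. As the genes were chosen with earlier results known, the contrast with the share over all genes is not independent support. At an unadjusted p below 0.05 there were 7 of 8 genes, beside 10.3% of all genes. The median log2 fold change of the 8 genes was −0.55, beside −0.02 over all genes. Without A3, *Ier3* alone was called, although the number of genes called over the whole table was larger at 304 (2.47%). With each of the 15 libraries left out in turn, *Egr1* and *Nr4a1* lost the call 1 time, *Trib1* 2 times, *Ier3* 8 times and *Ier5* 10 times. In such bulk libraries, fewer cells with a transcript and less of it per cell cannot be told apart.

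**Figure D1:**
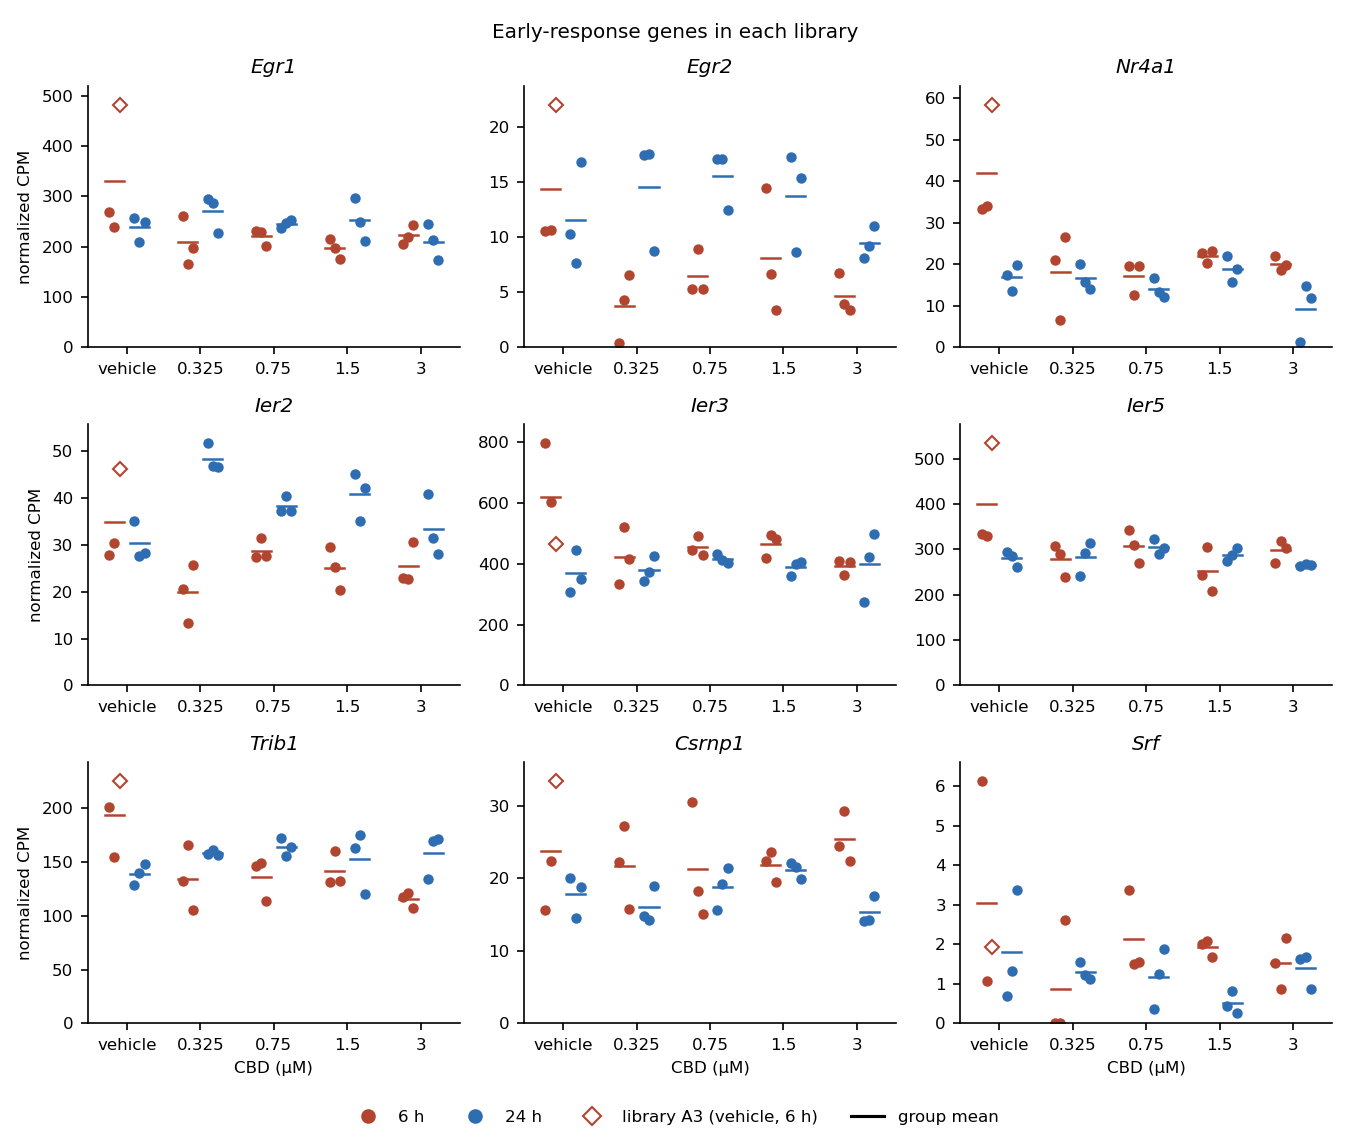
Level of each of the 9 genes in every library, in normalized CPM (vertical axis, starting at 0), by CBD dose (horizontal axis), with 6-h libraries in red, 24-h libraries in blue and a short line at each group mean. The open diamond is library A3, which lies above all other 6-h libraries in 7 panels, and in the panel of *Nr4a1* the 3 vehicle libraries of 6 h lie between 33.4 and 58.3 CPM, above all 12 CBD libraries.

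*Srf* (ENSMUSG00000015605, GRCm38 chr17:46548329-46556175, minus strand) encodes the transcription factor that drives many genes of this kind. It had between 0 and 11 reads per library. At 6 h its level was 6.12, 1.07 and 1.94 CPM in A1, A2 and A3, and it ranged from 0 through a median of 1.63 to 3.38 CPM in the 12 CBD libraries. The 2 libraries with 0 reads, A13 and A14, allow levels of up to 1.15 and 1.11 CPM (3 reads). These limits are scaled by the reads on genes alone, without the normalization of the other levels. At 24 h it was 0.699, 1.33 and 3.37 CPM in vehicle and 0.265 to 1.88 CPM under CBD. The groups overlapped at both times. The filter on low counts left *Srf* out of the main tests, and a small difference cannot be seen at this depth. Reads of *Srf* are also uncertain because a long noncoding RNA (*Gm26904*) on the other strand and a miRNA gene overlap it in the annotation.

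Promoter sequence from RefSeq was at hand for 6 of the 9 genes (*Egr2*, *Nr4a1*, *Ier3*, *Ier5*, *Srf* and *Csrnp1*), on GRCm38.p6. In the 250 bases before each start site, 3 motifs were searched on both strands, the CArG box that serum response factor binds, TGACG, the core of the CREB site, and GCGNGGGCG, the EGR site. They were found in 1.47%, 17.8% and 4.7% of 32841 promoter windows, respectively. The stretches of 3 promoters, from 240 to 31 bases before the start site, are shown because they hold these motifs and belong to the factor itself, to the gene with the largest log2 fold change at 6 h (*Egr2*) and to that with the largest change that passed the test (*Nr4a1*). Capitals mark the motifs, and a motif on the other strand appears as its reverse complement (CGTCA, CGCCCCCGC).
Srf, chr17:46556193-46556402, minus strand: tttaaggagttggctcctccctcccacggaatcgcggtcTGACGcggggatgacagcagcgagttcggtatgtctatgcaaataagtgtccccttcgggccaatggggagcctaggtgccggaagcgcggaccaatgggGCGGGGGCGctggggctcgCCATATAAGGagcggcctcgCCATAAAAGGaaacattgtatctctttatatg
Egr2, chr10:67537629-67537838, plus strand: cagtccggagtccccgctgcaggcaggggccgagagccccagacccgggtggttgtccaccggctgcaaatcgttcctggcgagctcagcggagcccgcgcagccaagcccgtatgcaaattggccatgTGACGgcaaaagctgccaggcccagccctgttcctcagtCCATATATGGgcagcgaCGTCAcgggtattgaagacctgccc
Nr4a1, chr15:101266606-101266815, plus strand: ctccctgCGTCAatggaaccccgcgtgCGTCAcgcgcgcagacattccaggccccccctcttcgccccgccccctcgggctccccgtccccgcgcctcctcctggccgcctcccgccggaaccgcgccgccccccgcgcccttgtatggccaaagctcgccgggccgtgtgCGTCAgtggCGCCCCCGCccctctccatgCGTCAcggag
The *Srf* stretch held CArG boxes at 82 to 73 and at 62 to 53 bases before the start site, and 1 match each of the other motifs. The *Egr2* stretch, from 1 of 5 annotated start sites, held 1 CArG box at 72 to 63 bases and TGACG on either strand. In *Nr4a1*, TGACG was found 4 times, all on the other strand, along with 1 EGR site and no CArG box. The windows of *Ier3* and *Ier5* held none of the 3 motifs, and the 4 windows of *Csrnp1* held TGACG and neither of the others, which says only that these letters are not in these windows.

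*Nr4a1* (ENSMUSG00000023034, GRCm38 chr15:101254269-101274795, plus strand) encodes an orphan nuclear receptor that acts as an early transcription factor. Its level at 6 h was 33.4, 34.1 and 58.3 CPM in A1, A2 and A3, from 60, 64 and 210 reads. In the 12 CBD libraries it ranged from 6.71 CPM in A14 through a median of 20.03 to 26.7 CPM in A15, from 17 to 72 reads. All CBD libraries lay below all vehicle libraries, as in 0.724% of the genes tested, and *Nr4a1* was the only tested gene of the 8 for which this held. The log2 fold change over the 4 doses was −1.14 (SE 0.23), with an edgeR FDR of 0.0205. From the lowest to the highest single dose it was −1.25, −1.30, −0.95 and −1.07. Without A3, the CBD libraries still lay below A1 and A2, and the log2 fold change was −0.80 (SE 0.27) with an edgeR FDR of 0.144. The 3 vehicle libraries of 24 h lay at 17.5, 13.6 and 19.9 CPM, within the range of the CBD libraries of 6 h.

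*Egr1* (ENSMUSG00000038418, GRCm38 chr18:34859823-34864984, plus strand) encodes a zinc-finger transcription factor used as a marker of neuronal activity. It was at 269, 240 and 481 CPM in A1, A2 and A3. Under CBD at 6 h its level went from 166 CPM in A14 through a median of 211 to 261 CPM in A13, and 10 of the 12 CBD libraries lay below the lowest vehicle library. The highest CBD library lay between A1 and A2, so the groups overlapped. Its log2 fold change was −0.65 (SE 0.15, edgeR FDR = 0.0437) and −0.27 (SE 0.13, edgeR FDR = 0.385) without A3, whose level was 1.89 times the mean of A1 and A2.

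*Egr2* (ENSMUSG00000037868, GRCm38 chr10:67535475-67542188, plus strand), a relative of *Egr1* that also directs myelination in Schwann cells, was at 10.6, 10.7 and 21.9 CPM in vehicle at 6 h. The CBD libraries of 6 h went from 0.398 CPM (1 read, A13) through a median of 5.29 to 14.4 CPM (36 reads, A7). A7 was the only CBD library above a vehicle library, and 11 of the 12 lay below all 3. The log2 fold change, −1.41 (SE 0.39), was larger than that of *Nr4a1*, but the edgeR FDR was 0.126 and rose to 0.414 without A3, at a log2 fold change of −0.93 (SE 0.48). This gene passed the threshold with DESeq2 (adjusted p = 0.0906), with a covariate for reads outside genes (edgeR FDR = 0.0431), and without a filter on low counts (edgeR FDR = 0.0022).

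The *Ier* genes encode short-lived proteins of immediate early induction. *Ier3* (ENSMUSG00000003541, GRCm38 chr17:35821684-35822923, plus strand), whose product affects survival under stress, stood apart from the others in where its vehicle libraries lay. It was at 797 CPM in A1, 603 CPM in A2 and 465 CPM in A3, and between 332 and 521 CPM (median 424 CPM) under CBD, so A3 was the lowest vehicle library here and lay within the CBD range. The log2 fold change was −0.52 (SE 0.13, edgeR FDR = 0.0677). Without A3 it was −0.69 (SE 0.12, edgeR FDR = 0.00187), and all CBD libraries then lay below both vehicle libraries, as they did for *Nr4a1* and for 4.49% of all genes.

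*Ier5* (ENSMUSG00000056708, GRCm38 chr1:155096361-155099636, minus strand), linked to the heat shock response, was at 335, 330 and 534 CPM in vehicle at 6 h and between 209 and 343 CPM (median 296 CPM) under CBD. One CBD library, A10, lay above A1 and A2, and the other 11 lay below all vehicle libraries. Its log2 fold change was −0.50 (SE 0.13), and the edgeR FDR of 0.0985 was just under the threshold. It was −0.23 (SE 0.13, edgeR FDR = 0.455) without A3.

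*Ier2* (ENSMUSG00000053560, GRCm38 chr8:84661331-84662852, minus strand) was at 27.8, 30.4 and 46.1 CPM in vehicle at 6 h and between 13.4 and 31.4 CPM (median 25.5 CPM) under CBD. A1 and A2 lay within the upper part of the CBD range. The log2 fold change of −0.53 (SE 0.19) did not pass (edgeR FDR = 0.287), and it was −0.25 (SE 0.22) without A3.

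*Trib1* (ENSMUSG00000032501, GRCm38 chr15:59648350-59657099, plus strand) encodes a pseudokinase that directs proteins to degradation and binds MAP kinase kinases. It was at 201, 155 and 225 CPM in A1, A2 and A3. Under CBD at 6 h it was between 105 and 166 CPM (median 132 CPM), and 10 of 12 libraries lay below the lowest vehicle library. The log2 fold change was −0.56 (SE 0.13, edgeR FDR = 0.0441), and −0.44 (SE 0.14, edgeR FDR = 0.139) without A3.

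*Csrnp1* (ENSMUSG00000032515, GRCm38 chr9:119971163-119984658, minus strand), which encodes a nuclear protein first described as induced by axin, was the tested gene with the smallest change. It was at 15.6, 22.4 and 33.3 CPM in vehicle at 6 h and between 15.004 and 30.4 CPM (median 22.4 CPM) under CBD. Its log2 fold change was −0.12 (SE 0.23, 95% interval −0.57 to 0.32), and it was 0.24 without A3. *Cx3cr1* on the same strand and an antisense gene overlap it in the annotation, so its read count is uncertain.

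**Figure D2:**
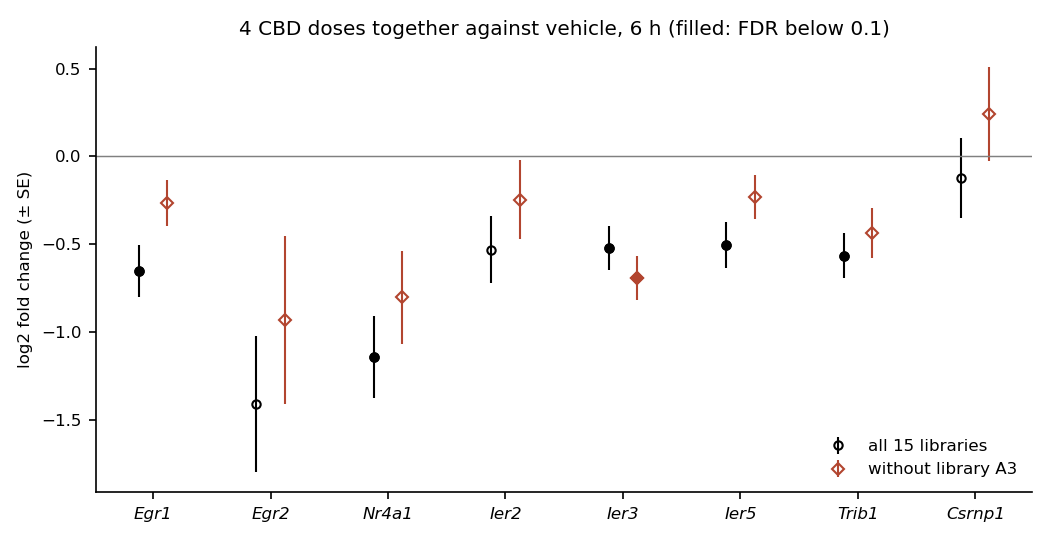
Log2 fold change of CBD, all 4 doses together, against vehicle at 6 h (vertical axis, with SE) for the 8 tested genes (horizontal axis), from all 15 libraries (black circles) and without library A3 (red diamonds), with filled symbols at an FDR below 0.1. With all libraries 5 symbols are filled, without A3 that of *Ier3* alone, at −0.69, and the red symbol of *Csrnp1* lies above 0.

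At single doses of the 6-h treatment no gene of the 8 passed an FDR of 0.1 by edgeR. From 0.325 µM upwards, the share of all genes called was 0.2%, 0.0749%, 0.0999% and 0.05%. At an unadjusted p below 0.05, the number of these genes was 7, 6, 5 and 6 of 8 in the same order of doses, all with lower levels under CBD, beside 8.8%, 7.79%, 7.91% and 7.26% of all genes. The smallest FDR was that of *Trib1* at 3 µM, with a log2 fold change of −0.75 (SE 0.17, edgeR FDR = 0.104). With DESeq2 2, 1, 2 and 2 of these genes passed at the 4 doses, beside 0.591%, 0.4%, 0.466% and 0.4% of all genes. Without A3, edgeR called *Ier3* at 0.325, 0.75 and 3 µM and no gene at 1.5 µM, beside 0.876%, 1.4%, 1.1% and 0.406% of all genes. All doses were compared with the same 3 vehicle libraries, so their changes are not independent of each other.

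Groups of 3 against 3 did not overlap for 4 genes at 0.325 µM (*Egr2*, *Nr4a1*, *Ier2* and *Ier5*), 4 at 0.75 µM (*Egr1*, *Egr2*, *Nr4a1* and *Trib1*), 3 at 1.5 µM (*Egr1*, *Nr4a1* and *Ier5*) and 5 at 3 µM (*Egr2*, *Nr4a1*, *Ier3*, *Ier5* and *Trib1*), with CBD lower in all these cases. Over all genes, CBD lay wholly below vehicle in 4.87%, 5.11%, 5.44% and 5.99%, respectively. The test of any difference among the 4 doses at 6 h called 0 of these genes and 0% of all genes, and at an unadjusted p below 0.05 it gave 0 of 8 genes and 3.76% of all genes. In the test of 3 µM against the 3 lower doses, 0 of 8 genes passed as well (0% of all genes), none at an unadjusted p below 0.05 (5.19% of all genes), and *Egr2* had the log2 fold change furthest from 0, −0.27 (SE 0.48). The spread of *Egr2* between libraries of a dose was wide, 3.38 to 14.4 CPM at 1.5 µM, which covers its levels at the other doses except those of A13.

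**Figure D3:**
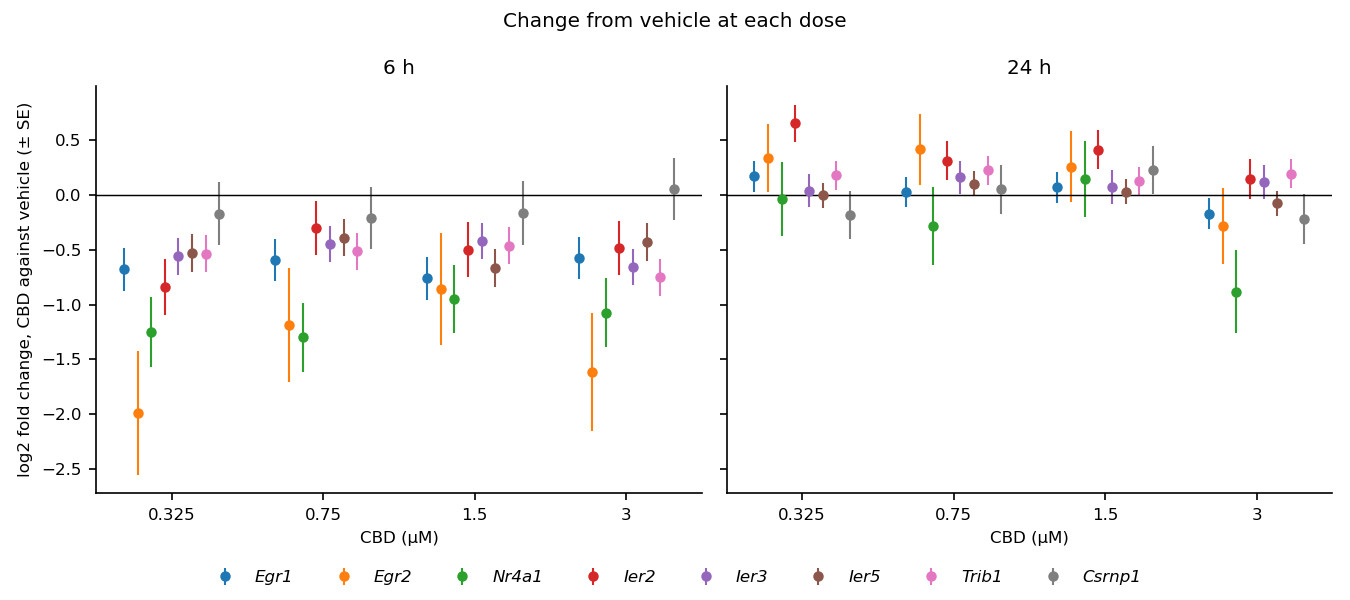
Log2 fold change of each CBD dose against vehicle (vertical axis, with SE) for the 8 tested genes (colours), by dose (horizontal axis), at 6 h on the left and 24 h on the right. At 6 h all values but that of *Csrnp1* at 3 µM lie below 0, with *Egr2* and *Nr4a1* lowest, and at 24 h the values lie on both sides of 0 between −0.88 and 0.66.

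After 24 h none of the 8 genes was called lower or higher. Over the 4 doses together 0 of 8 genes passed (0.107% of all genes did), 1 gene (*Ier2*) had an unadjusted p below 0.05 by edgeR (6.73% of all genes did), and with DESeq2 0 passed. The median log2 fold change was 0.06. *Nr4a1* was at 17.5, 13.6 and 19.9 CPM in vehicle (A28, A29 and A30) and between 1.21 and 22.1 CPM (median 15.2 CPM) under CBD, with a log2 fold change of −0.26 (SE 0.27). Its lowest value came from A16, a library of 3 µM, with 3 reads, where every other library of 24 h had at least 27. *Egr1* was at 257, 210 and 248 CPM in vehicle and between 173 and 298 CPM under CBD, and *Egr2* at 10.2, 7.63 and 16.8 CPM and between 8.09 and 17.5 CPM. In both genes the groups overlapped.

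*Ier2* had the highest log2 fold change of the 8 genes over the 4 doses together at 24 h, 0.38. It was at 35.2, 27.5 and 28.3 CPM in vehicle, at 51.6, 46.8 and 46.5 CPM at 0.325 µM, and between 28.1 and 45.0 CPM at the higher doses. At 0.325 µM its log2 fold change was 0.66 (SE 0.17), but the edgeR FDR was 0.263. *Ier2* and *Trib1* were the genes whose CBD libraries lay wholly above vehicle at 0.325 and at 0.75 µM, 2 of 8 at each dose, beside 7.11% and 8.5% of all genes. *Trib1* was at 129, 140 and 148 CPM in vehicle, between 157 and 161 CPM at 0.325 µM and between 155 and 173 CPM at 0.75 µM. These differences of *Trib1* were small, 0.18 and 0.22 on the log2 scale, and did not pass (edgeR FDR = 0.748 and 0.752). *Ier3*, *Ier5* and *Csrnp1* overlapped with vehicle at all 4 doses.

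None of the genes passed at any single dose of 24 h by edgeR, where 0.066%, 0.0825%, 0.0413% and 0.00825% of all genes were called from 0.325 to 3 µM. At an unadjusted p below 0.05 there were 1, 0, 1 and 1 genes in the same order, *Ier2* at 0.325 and 1.5 µM and *Nr4a1* at the highest dose, beside 8.33%, 7.63%, 7.34% and 9.16% of all genes. The doses differed more among themselves at 24 h than at 6 h over the whole table (1.93% of genes called for any difference, 10.5% for 3 µM against the 3 lower doses), but none of the 8 genes passed either test. With a covariate for reads outside genes, 0.00825% of genes were called for any difference at 24 h, and 0.00833% at 6 h. For 3 µM against the 3 lower doses at 24 h, 0.248% were then called. For any difference, 1 of 8 genes (*Ier2*) had an unadjusted p below 0.05, beside 14.5% of all genes. *Egr1*, *Egr2*, *Nr4a1* and *Ier2* had an unadjusted p below 0.05 in the latter (4 of 8 genes, beside 21.6% of all genes), each lower at 3 µM, with log2 fold changes of −0.26, −0.62, −0.82 and −0.32. The smallest FDR of these was 0.137, for *Nr4a1*, and DESeq2 called 1 of the 8 genes and 10.6% of all genes. Without A17, the 3 µM library with the highest *Nr4a1* level (14.7 CPM), edgeR called *Nr4a1* in both tests, beside 8.62% of all genes for any difference and 18.3% for 3 µM against the 3 lower doses. The 3 µM libraries then left were A16 (3 reads, 1.21 CPM) and A18 (11.8 CPM). With any other library of 24 h left out, none of the 8 genes was called in either test.

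The mean of the standardized log2 levels of the 8 genes (z-scores within each time) sums up the set in each library. At 6 h it was between 0.59 and 1.95 in the vehicle libraries, with A3 highest, and between −0.61 and 0.21 in the CBD libraries. At 24 h it was between −0.59 and −0.13 in vehicle, between −1.14 and −0.29 at 3 µM, and between 0.10 and 0.68 at the 3 lower doses. The share of reads outside genes at 24 h was higher in the groups where this mean was lower, being between 20.9% and 22.2% in vehicle, between 20.8% and 21.7% at 3 µM and between 18.7% and 20.4% at the lower doses. Its part in the levels was not tested beyond the covariate, with which the log2 fold change of *Nr4a1* at 24 h changed from −0.26 to 0.40 and that of *Ier5* from 0.014 to −0.011.

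**Figure D4:**
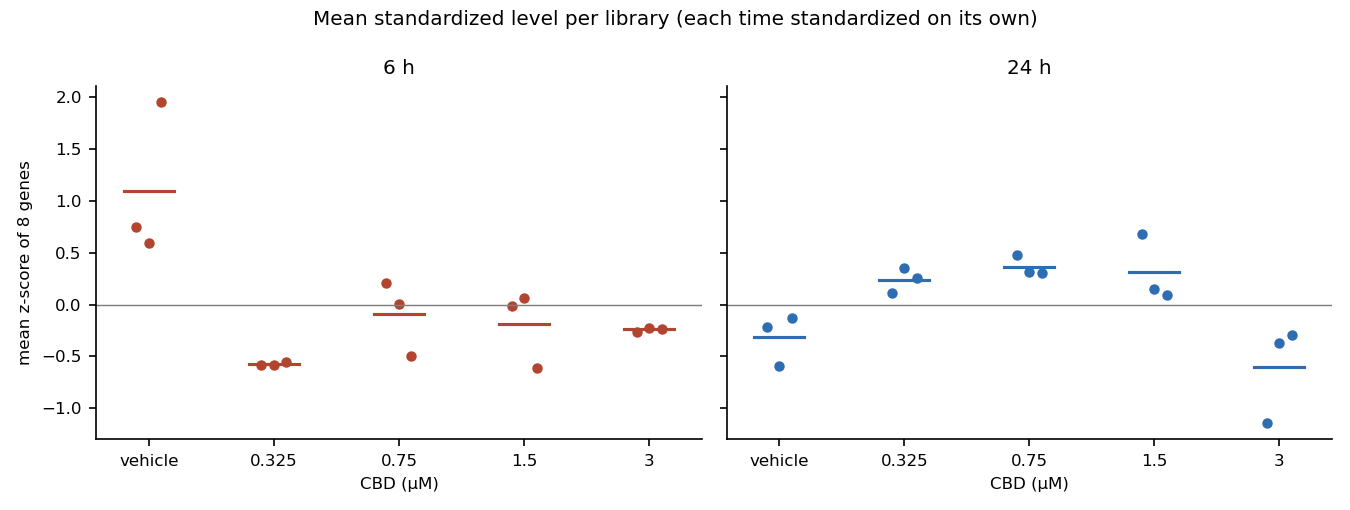
Mean z-score of the 8 tested genes (vertical axis, from log2 levels standardized separately at each time) in each library, by CBD dose (horizontal axis), at 6 h on the left and 24 h on the right, with a line at each group mean. At 6 h the 3 vehicle libraries lie highest, at 0.59 to 1.95, and at 24 h vehicle and 3 µM lie below the 3 lower doses.

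The genes did not all vary together from library to library. At 6 h, Pearson's r of log2 levels over the 15 libraries had a median of 0.41 over the 28 pairs of genes, and was highest for *Egr1* with *Ier5* (0.863). Once the group means were taken out, the median was 0.08. At 24 h the median over pairs was 0.09, with the lowest value for *Egr1* with *Ier3* (−0.68), and once the group means were taken out the median was −0.02. The points share libraries and depth, and these values are given as a description.

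The change from vehicle to CBD was compared between the times directly. For *Trib1* it was higher at 24 h than at 6 h by 0.75 on the log2 scale (SE 0.17, edgeR FDR = 0.0656), and this was the only gene of the 8 that passed, beside 0.235% of all genes. Without A3 the difference was 0.62 (SE 0.18) with an edgeR FDR of 0.317, and 0.122% of all genes were called. All 8 differences were positive and 7 had an unadjusted p below 0.05 (6.52% of all genes did), the largest being that of *Egr2*, 1.61 (SE 0.48, edgeR FDR = 0.294). The exception was *Csrnp1*, at 0.10 (SE 0.29).

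Vehicle itself changed between the times. From 6 h to 24 h *Nr4a1*, *Ier3*, *Ier5*, *Trib1* and *Egr1* fell, 5 of 8 genes, beside 14.2% of all genes called lower and 26.7% called in either direction. *Nr4a1* fell by 1.33 on the log2 scale (SE 0.35, edgeR FDR = 0.00557) and *Ier3* by 0.75 (SE 0.17, edgeR FDR = 0.00183), and these were also the 2 genes called without A3 (20.2% of all genes were). *Nr4a1*, *Ier3*, *Ier5* and *Trib1* had all 24-h vehicle libraries below all 6-h vehicle libraries, as did 15.9% of all genes. Under CBD, 4 genes were higher at 24 h than at 6 h, *Egr2* by 1.23 (SE 0.24, edgeR FDR = 4.74e-05), *Ier2* by 0.70 (SE 0.11, edgeR FDR = 1.36e-06), *Trib1* by 0.27 and *Egr1* by 0.20. *Nr4a1* (−0.45) and *Csrnp1* (−0.35) were lower. These 6 of 8 genes stand beside 53.6% of all genes called, 26% higher and 27.6% lower. Time of treatment, time since the medium was given and harvest cannot be told apart in this comparison.

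Among 31 other early-response genes outside the AP-1 and dual-specificity phosphatase families, 30 were tested at 6 h and 8 fell over the 4 doses together, beside 0.508% of all genes called lower. The median log2 fold change of the list was −0.32, beside −0.02 over all genes. This list was also drawn up with earlier results of these data known. The paper lists *Ppp1r15a*, *Hes1*, *Plk2*, *Klf6* and *Gadd45g* as altered at 6 h in the same libraries, from DESeq2 tests of single doses. The count is therefore not independent support. *Ppp1r15a*, which restarts translation after stress, had the largest change. It was between 27.8 and 43.9 CPM in vehicle and between 9.02 and 15.8 CPM under CBD, with a log2 fold change of −1.57 (SE 0.20, edgeR FDR = 0.000382). *Hes1*, a Notch target, was between 96.6 and 189 CPM in vehicle and between 23.3 and 73.6 CPM under CBD (−1.18, SE 0.19, edgeR FDR = 0.00367). *Plk2*, an activity-induced kinase, was between 46.4 and 49.7 CPM in vehicle and between 17.6 and 37.0 CPM under CBD (−0.92, SE 0.18, edgeR FDR = 0.0161). In *Plk2* and in *Klf6* (196 to 204 CPM against 114 to 173 CPM, log2 fold change −0.50) the 3 vehicle libraries lay close together, A3 included. *Zfp36* (−1.04), *Ccn2* (−0.87), *Gadd45b* (−0.79) and *Gadd45g* (−0.79) made up the 8. Without A3, *Ppp1r15a*, *Hes1*, *Plk2*, *Klf6* and *Zfp36* were still called lower and *Rgs2* was called higher, beside 2.47% of all genes called. At 24 h 0 of 29 tested genes of this list passed over the 4 doses, with 4 at an unadjusted p below 0.05. Over all genes these shares were 0.107% and 6.73%.

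Of 11 close relatives and partners of the 9 genes, 9 were tested at 6 h and 0 passed over the 4 doses together, with 3 at an unadjusted p below 0.05. Over all genes these shares were 0.749% and 10.3%. *Nr4a2*, a receptor of the same family as *Nr4a1*, was between 40.6 and 46.6 CPM in vehicle and between 43.8 and 65.5 CPM under CBD at 6 h, with a log2 fold change of 0.37 (SE 0.14, edgeR FDR = 0.31). *Egr3* was between 8.90 and 25.8 CPM in vehicle and between 6.25 and 17.5 CPM under CBD (−0.64, SE 0.29, edgeR FDR = 0.453). *Egr4* and *Csrnp3* did not pass the filter. Without A3, *Trib3* alone was called, lower under CBD, beside 2.47% of all genes. In vehicle, *Nab1*, a corepressor of EGR proteins, and *Trib3* were lower at 24 h than at 6 h, 2 of 9 tested relatives, beside 14.2% of all genes called lower.

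The genes that lead to the 9 genes, or that serum response factor also controls, did not pass at 6 h over the 4 doses by edgeR. This holds for 0 of 5 tested cofactors of serum response factor (1 at an unadjusted p below 0.05), 0 of 14 kinases and factors of the MAP kinase and CREB routes (0 at an unadjusted p below 0.05) and 0 of 14 cytoskeletal targets such as *Acta2* and *Vcl* (3 at an unadjusted p below 0.05). The cytoskeletal targets had a median log2 fold change of 0.13. Of 7 neuronal activity genes, *Arc* and *Npas4* did not pass the filter, and 0 of the 5 tested passed (1 at an unadjusted p below 0.05). Over all genes, 0.749% passed and 10.3% had an unadjusted p below 0.05. Counts of 0 in lists this short are near that share and do not show that these genes were unaffected. At 24 h 0 genes of these 4 lists and of the relatives passed over the 4 doses, with 1 cofactor and 1 kinase at an unadjusted p below 0.05. Over all genes these shares were 0.107% and 6.73%. Among the kinases 1 was called in 3 µM against the 3 lower doses at 24 h, and among the cytoskeletal targets 2, each of 14 genes tested, which is near the share over all genes (10.5%).

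The genes whose levels followed the mean z-score of the 8 genes most closely over the 15 libraries of 6 h, among 8637 other genes of at least 10 CPM, were *Ppp1r15a* (r = 0.891), *Fam45a* (0.869), *Tnfrsf12a* (0.861), *Nras* (0.857) and *Sgk1* (0.845). Within the 12 CBD libraries, r was 0.893 for *Tnfrsf12a*, a receptor of the TNF family, and 0.403 for *Ppp1r15a*. At 24 h they were *Slc25a51* (0.916), *Pank1* (0.908), *Pggt1b* (0.899), *Junb* (0.897) and *Lima1* (0.893), among 8660 genes, and none of these was in the list of 6 h. All r values are Pearson's r, share libraries and depth, and are descriptions.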

How the data were processed

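The submitters deposited raw read counts per Ensembl gene for each library, which the authors made with FastQC 0.11.9, Flexbar trimming, STAR 2.7.5c on GRCm39 and HTSeq 1.99.2 (tools and versions per the labels and methods). The strand setting is not given in the sources used here. Counts were analysed as deposited in R 4.3.3 with edgeR 4.0.16 (filterByExpr, TMM, glmQLFit and glmQLFTest, 1 mean per group). Fits used 15 libraries per time (12012 genes at 6 h, 12118 at 24 h) or all 30 (12790 genes), p-values were adjusted over all genes of a contrast (Benjamini-Hochberg), and an FDR below 0.1 was called. Standard errors came from the fold change and its F value. Log2 CPM used a prior count of 2. Biological coefficients of variation were 0.179 at 6 h and 0.150 at 24 h. GENCODE M21 gave symbols for 51948 genes and positions, which are on the older build GRCm38.

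The genes and lists were chosen with earlier results of these data known. Named from the lists are the genes called over the 4 doses, at most 10 per list, and relatives. *Nr4a2*, *Egr3*, *Rgs2*, *Trib3* and *Nab1* were named after their values were seen. Alternatives were DESeq2 1.42.0, RLE, no filter, only the groups compared, the share of reads outside genes as covariate, and leaving out each library. Steps were tested on simulated data. Upper limits for a count of 0 (3 reads) cover counting error only.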

Additional observations from a re-analysis of the deposited data

Results flagged for a closer look

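The change from vehicle to CBD differed between 24 h and 6 h, by the interaction test of edgeR over all 30 libraries, for *Trib1* among the 8 tested genes and for 3 other early-response genes. On the log2 scale the change was higher at 24 h by 0.75 for *Trib1* (FDR = 0.0656), by 1.18 for *Gadd45g* (FDR = 0.0233), by 1.56 for *Ppp1r15a* (FDR = 0.0656) and by 1.18 for *Hes1* (FDR = 0.0656). Without library A3 none of the 4 was called by edgeR, with differences of 0.62, 0.75, 1.31 and 0.79 and FDR values between 0.308 and 0.417. *Gadd45g* was between 60.6 and 121 CPM in vehicle and between 27.4 and 74.3 CPM under CBD at 6 h, and between 36.8 and 53.2 CPM in vehicle and between 50.9 and 65.1 CPM under CBD at 24 h.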

How the results depend on the processing

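The 5 calls over the 4 doses at 6 h passed with DESeq2, RLE normalization, no filter and the covariate as well. All of these fits included A3, and none of these alternatives was run without it. Single doses of 6 h depended on the setting. Where edgeR called 0 genes at each dose, from the lowest to the highest dose DESeq2 called 2, 1, 2 and 2, no filter on low counts 5, 2, 3 and 5, and the covariate 7, 3, 2 and 4. The fit without a filter also tested *Srf*, so its counts are out of 9 genes. Of all genes, DESeq2 called 0.4% to 0.591% at these doses, no filter 0.364% to 0.598% and the covariate 0.658% to 2.68%. For 3 µM against the lower doses at 24 h, DESeq2 and no filter called 1 each (10.6% and 5.21% of all genes). For the difference between the times, DESeq2 called 2, no filter 4 and the covariate 2, where 1 was called (0.383%, 0.316% and 0.195% of all genes). With the covariate the log2 fold changes of *Nr4a1* (0.40) and *Ier5* (−0.011) at 24 h and the time difference of *Csrnp1* (−0.036) changed sign, and none of these was called. The cause was not tested. RLE normalization and the fit of only the groups compared moved no count of calls by over 1.5 times.

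Leaving out 1 library in turn gave 1 (without A3) to 6 (without A13) calls over the 4 doses at 6 h, with 3 without A1, A4, A5, A6, A10 or A12. Of all genes, 0.411% to 2.47% were called in these fits. At single doses of 6 h, leaving out 1 library gave 0 to 1 call at 0.325 µM (1 without A1, A3 or A13). The omissions gave 0 to 1 at 0.75 µM (1 without A3 or A14) and 0 to 3 at 3 µM (3 without A14). The shares over all genes were 0% to 0.876%, 0.0081% to 1.4% and 0% to 1.1%, respectively. At 24 h the omissions gave 0 to 1 call both for any difference among doses and for 3 µM against the lower doses (1 without A17). Of all genes, 0.0715% to 8.62% and 0.543% to 18.3% were called, respectively. The difference between the times gave 0 to 2 calls, beside 0.0152% to 0.341% of all genes. Vehicle at 24 h against 6 h gave 2 (without A3) to 6 (without A1), beside 18.5% to 27% of all genes. Signs changed for *Csrnp1* at 6 h (−0.34 to 0.24), and at 24 h for *Egr1* (−0.056 to 0.080), *Egr2* (−0.027 to 0.54), *Ier3* (−0.017 to 0.26), *Ier5* (−0.031 to 0.049) and *Csrnp1* (−0.15 to 0.068), and for the time difference of *Csrnp1* (−0.26 to 0.31). Without A3, 2 genes had all CBD libraries below vehicle at 6 h (4.49% of all genes did), against 1 with it (0.724%). No paired analysis was possible because the labels carry no replicate numbers shared between groups. With 3 libraries per group, and 1 to 36 reads of *Egr2* in the CBD libraries of 6 h, small changes were not detectable.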
